A study of Homo sapiens with 192 samples.

Results

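The 5 guanylate-binding proteins GBP1, GBP2, GBP3, GBP4 and GBP5 were followed by RNA sequencing in 4 human colorectal cancer (CRC) cell lines grown in 2D and in 3D. They are 5 of the 58243 genes listed in the counts, found by their Ensembl identifiers. GBP2 was chosen by its measured rise in HCT116 grown in 3D, and the others are its neighbours and relatives, so every value of the HCT116 comparison is given below as a description and carries no test. Tests were made in HT29, LS513 and LS174T, where 4 of the 5 genes passed the filter on low counts and were among the 19387 genes tested. GBP5 did not pass, and GBP4 passed only through its counts in HT29 grown in 3D, so a difference there was built into its being tested at all.

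Guanylate-binding proteins are large GTPases that cells make in quantity when interferon reaches them. Interferon gamma acts through the receptor chains IFNGR1 and IFNGR2 and the kinases JAK1 and JAK2, and its response runs through a short DNA element called GAS, while type I and type III interferons act through a complex that contains IRF9 and binds an element called ISRE. The GTPases then assemble on membranes of invading bacteria and of vacuoles, and some of them help to switch on inflammatory caspases. GBP1, GBP2 and GBP5 end in a CaaX box, a tail whose cysteine receives a lipid that anchors the protein to membranes. In the intestine they are best known from epithelial cells exposed to inflammation.

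HT29, LS513, HCT116 and LS174T are established epithelial lines from colorectal tumours, and each was grown as a 2D layer or in 3D, with 3 libraries per line and growth condition and 24 in all. None of the 8 groups was labelled as treated with an interferon or another agent. The labels do not say whether the 3 libraries of a group came from separate cultures, so p-values measure the spread between these libraries, which may be technical. Each line is 1 genotype, and by the study's methods HCT116 had another medium than the other lines, so that line and medium cannot be told apart in comparisons that set HCT116 beside them. Levels are in CPM, which are counts scaled to library size with TMM, and a floor of 3 counts corresponds to between 0.0875 and 0.16 CPM before scaling. Library totals ran from 18723942 to 34277421 counts.

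The 5 genes lie in a row on chromosome 1, all on the minus strand. In GRCh38, GBP3 (ENSG00000117226) spans chr1:89006666-89022894 and GBP1 (ENSG00000117228) spans chr1:89052319-89065360. GBP2 (ENSG00000162645) follows at chr1:89106132-89150456, GBP4 (ENSG00000162654) at chr1:89181148-89198932 and GBP5 (ENSG00000154451) at chr1:89258950-89272804. All 5 are annotated as protein coding. GBP7, another relative, overlaps GBP2 on the same strand, and 621 exonic bases, 9.89% of those of GBP2, belong to both genes. GBP4 and GBP5 share 138 and 324 exonic bases with antisense genes on the other strand.

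**Figure D1:**
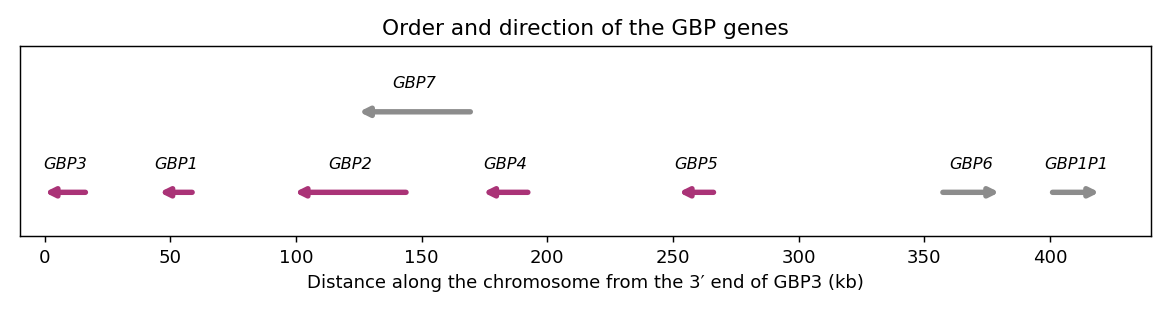
Order and direction of the GBP genes along chromosome 1, drawn to scale as distance in kb from the 3′ end of GBP3. Purple arrows are the 5 genes described and grey arrows are GBP7, GBP6 and the pseudogene GBP1P1, with each arrow pointing in the direction of transcription; GBP7 is raised because it overlaps GBP2.

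The coding sequences are alike enough to bear on read counting. Aligned coding bases were identical at 91.7% between GBP1 and GBP3, at 82.5% between GBP1 and GBP2, and at 64.5% between GBP3 and GBP4. Reads were 75 bases long, and those aligning to more than 1 place were removed by the authors. Of all 75-base stretches of a gene's transcripts, 8.94% in GBP2, 3.79% in GBP1, 2.31% in GBP4, 2.11% in GBP5 and 1.25% in GBP3 occur in another gene as well. In GBP2 these were mostly the 548 stretches shared with GBP7. GBP7 had 1 count in a single library of LS513 grown in 2D and 0 in the other 23, GBP6 had 0 in all 24, and GBP1P1 had 1, 2 and 2 counts in the 3 libraries of HCT116 grown in 3D and 0 in the other 21.

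The ends of the coding sequences show how the members differ at the tail. They are the last 30 coding bases from the GRCh38 transcripts, stop codon included, on the coding strand. The capitals mark the 4 codons of the CaaX box, which begin with a cysteine codon 4 codons before the stop in GBP1, GBP2 and GBP5 and are missing in GBP3 and GBP4.
GBP1: agacgacgaaaggcaTGTACCATAAGCtaa
GBP2: tcattggagccaataTGTAACATACTCtaa
GBP3: agatatatgtcgcataagctaaagatctaa
GBP4: gggacaaaatatcttggctcacgtatttaa
GBP5: aataacgatgatccaTGTGTTTTACTCtaa
The genes with the highest levels in these cells, GBP2 and GBP3, are thus 1 with the tail and 1 without.

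Promoter sequences from RefSeq (GRCh38.p14, 250 bases before to 50 after the gene start) were at hand for GBP1, GBP3 and GBP4 and were searched for the 2 interferon elements. All 3 held the ISRE letters, a pair of GAAA blocks with 2 bases of any kind between them, when both strands were read, which 3.57% of 35116 promoters do, and GBP3 also held the GAS letters TTCNNNGAA, which 7.66% do. The windows below are 30 bases on the minus strand, which is the coding strand of these genes, with the match in capitals; the ISRE reads there as its reverse complement. Distances are from the RefSeq start, which differs from the GENCODE start of the spans given above, so that the matches of GBP1 and GBP3 lie just inside those spans. A match of letters is a description and does not show binding.
GBP1 ISRE, 127 bases before the RefSeq start, chr1:89065316-89065345: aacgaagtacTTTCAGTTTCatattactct
GBP3 ISRE, 2 bases after the RefSeq start, chr1:89022845-89022874: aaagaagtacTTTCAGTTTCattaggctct
GBP3 GAS, 15 bases before the RefSeq start, chr1:89022862-89022891: actgagtcacTTCCTTGAAagaagtacttt
GBP4 ISRE, 4 bases before the RefSeq start, chr1:89198927-89198956: gtgcatgtccTTTCAATTTCggttctcaca

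The lines differed widely in how much of the family they expressed. Summed over the 5 genes, 2D cells had 35.7 ± 2.01 CPM in LS513, 27.4 ± 0.746 in LS174T, 18.5 ± 2.38 in HT29 and 0.542 ± 0.183 in HCT116 (mean ± SD, n = 3 each). In 3D the sums were 55.1 ± 2.94 in LS513, 41.9 ± 1.21 in HT29, 31.9 ± 2.39 in LS174T and 4.50 ± 2.41 in HCT116. In each line the 3 sums in 3D lay above the 3 in 2D, since the lowest 3D sum of LS174T was 29.4 CPM and its highest 2D sum 28.3. The share of all genes tested with every 3D library above every 2D library was counted in HCT116 alone, at 22.8%. Groups that lie apart in the other lines, here and below, are therefore a description. These are bulk libraries, so more cells expressing a gene and more RNA per expressing cell cannot be told apart.

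**Figure D2:**
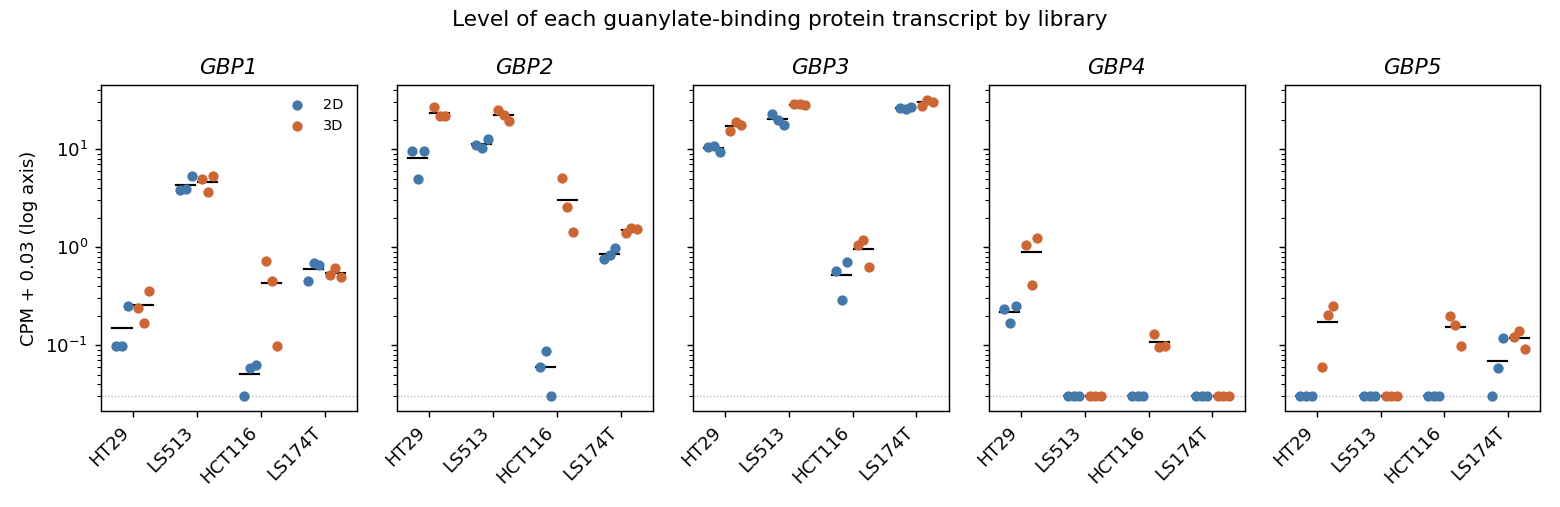
Level of each gene in every library, as CPM plus 0.03 on a log axis, by cell line, with 2D in blue, 3D in orange and a bar at each group mean of 3 libraries. Points on the dotted line had 0 counts. GBP2 is higher in every 3D library than in every 2D library of the same line, while GBP1 overlaps between growth conditions in HT29, LS513 and LS174T. The share of all genes tested that lie apart in this way was counted in HCT116 alone (22.8%).

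GBP2, a GTPase with a lipid-anchored tail, was higher in 3D in each line. In HT29 it measured 9.53, 4.95 and 9.64 CPM in 2D and 26.8, 21.8 and 21.9 CPM in 3D. One 2D library lay well under its partners, yet the growth conditions did not overlap, and the fitted log2 fold change was 1.56 (SE 0.27, 95% interval 1.00 to 2.11, adjusted p = 8.9e-05 in edgeR). Genes called higher in 3D made up 21.1% of all genes tested in HT29. In LS513, GBP2 measured 10.9, 10.3 and 12.7 CPM in 2D and 24.8, 22.1 and 19.3 CPM in 3D. The groups again lay apart, with a log2 fold change of 0.96 (SE 0.26, 95% interval 0.42 to 1.5, adjusted p = 0.0089), in a line where 13.7% of genes were called higher in 3D.

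LS174T had little GBP2. It measured 0.718, 0.796 and 0.948 CPM in 2D, from 24 to 32 counts per library, and 1.35, 1.53 and 1.5 CPM in 3D, from 42 to 49 counts. Every 3D library was above every 2D library, and the log2 fold change was 0.83 (SE 0.37, 95% interval 0.06 to 1.59), but the adjusted p of 0.109 missed the threshold of 0.05. It passed where LS174T was fitted on its own (adjusted p = 0.037) and where genes were not filtered (adjusted p = 0.0077). Genes called higher in 3D were 13.1% in LS174T, and none of the members was among them in edgeR, where GBP2 alone had an unadjusted p under 0.05 (0.035). DESeq2 called none either, with an adjusted p of 0.061 for GBP2.

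HCT116 was the line in which GBP2 was picked, and there it went from 1, 2 and 0 counts in 2D to 151, 77 and 42 counts in 3D. In CPM these were 0.0302, 0.0575 and 0 against 5.02, 2.52 and 1.40. The 3D libraries differed widely among themselves but all lay far above 2D. The pooled ratio was 98.4, and its exact 95% interval of 33.3 to 480 covers counting error only, with 3 counts in all on the 2D side. Even so, the 3D mean in HCT116, 2.98 ± 1.85 CPM, was under the 2D mean of HT29 or LS513. Of all genes tested, 22.8% had every 3D library of HCT116 above every 2D library.

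GBP3, which lacks the lipid-anchored tail, was the most abundant member in LS174T and LS513. In HT29 it measured 10.5, 10.6 and 9.31 CPM in 2D and 15.3, 18.7 and 17.6 CPM in 3D, without overlap. The log2 fold change was 0.76 (SE 0.15, 95% interval 0.44 to 1.07, adjusted p = 0.00044 in edgeR). In LS513 it measured 23.0, 19.6 and 17.6 CPM in 2D and 28.6, 28.6 and 28.2 CPM in 3D. The 3D libraries sat closely together above a more scattered 2D group, with a log2 fold change of 0.51 (SE 0.15, 95% interval 0.20 to 0.81, adjusted p = 0.014). That call was lost without the second LS513 2D library (adjusted p = 0.056) and without the third (adjusted p = 0.078).

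In LS174T, GBP3 measured 26, 25.4 and 26.6 CPM in 2D and 27.4, 31.9 and 30.3 CPM in 3D. The groups did not overlap, but the log2 fold change of 0.20 (95% interval −0.10 to 0.50) had an adjusted p of 0.337. In HCT116 it measured 0.544, 0.259 and 0.674 CPM in 2D and 1.03, 1.14 and 0.602 CPM in 3D, with overlap and a pooled ratio of 1.91 (exact 95% interval 1.33 to 2.79, counting error only). HCT116 thus held far less GBP3 than the other lines in both growth conditions.

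GBP1, the best studied member in epithelium and the one closest to GBP3 in sequence, was mainly a transcript of LS513. There it measured 3.80, 3.9 and 5.23 CPM in 2D and 4.97, 3.66 and 5.23 CPM in 3D, which overlapped (log2 fold change 0.10, 95% interval −0.51 to 0.71, adjusted p = 0.883). LS174T had 0.565 ± 0.128 CPM in 2D and 0.512 ± 0.0640 CPM in 3D, also overlapping (log2 fold change −0.15, 95% interval −1.01 to 0.71, adjusted p = 0.840). In HT29 there were 2, 2 and 4 counts per library in 2D and 7, 4 and 9 in 3D, too few to place the log2 fold change of 1.05 (95% interval −0.37 to 2.46, adjusted p = 0.233). In HCT116 there were 0, 1 and 1 counts in 2D against 21, 13 and 2 in 3D, a pooled ratio of 19.7 (exact 95% interval 5.07 to 169, counting error only). The lowest of those 3D libraries, at 0.0669 CPM, was close to the highest 2D library, at 0.0321 CPM.

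GBP4, the longest coding sequence of the 5 and one without the CaaX box, was found in HT29 and HCT116 and had 0 counts in all 12 libraries of LS513 and LS174T. In HT29 there were 6, 4 and 4 counts in 2D and 34, 11 and 33 in 3D, or 0.188 ± 0.0437 and 0.868 ± 0.431 CPM. The groups lay apart, with a pooled ratio of 4.75 (exact 95% interval 2.67 to 9.09, counting error only). GBP4 was past the edgeR threshold there, but no weight is given to that call, since only the 3D libraries of HT29 brought the gene into the test. HCT116 had 0 counts in its 2D libraries and 3, 2 and 2 in 3D, a ratio of 2.55 when 3 counts are put in for the 2D group. That ratio leaves out the counting error of the 3D side.

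GBP5, which carries the CaaX box, stayed at 6 counts or fewer in every library. HT29 had 0 counts in 2D and 1, 5 and 6 in 3D, a ratio of 3.41 with 3 counts put in for the 2D group. HCT116 likewise had 0 in 2D and 5, 4 and 2 in 3D, a ratio of 4.01 on the same floor. Both ratios leave out the counting error of the 3D side. LS174T had 0, 1 and 3 counts in 2D and 3, 3 and 2 in 3D, which overlapped, and LS513 had none in its 6 libraries. Both GBP4 and GBP5 were thus at 0 in every 2D library of HCT116 and above 0 in every 3D library of it.

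**Figure D3:**
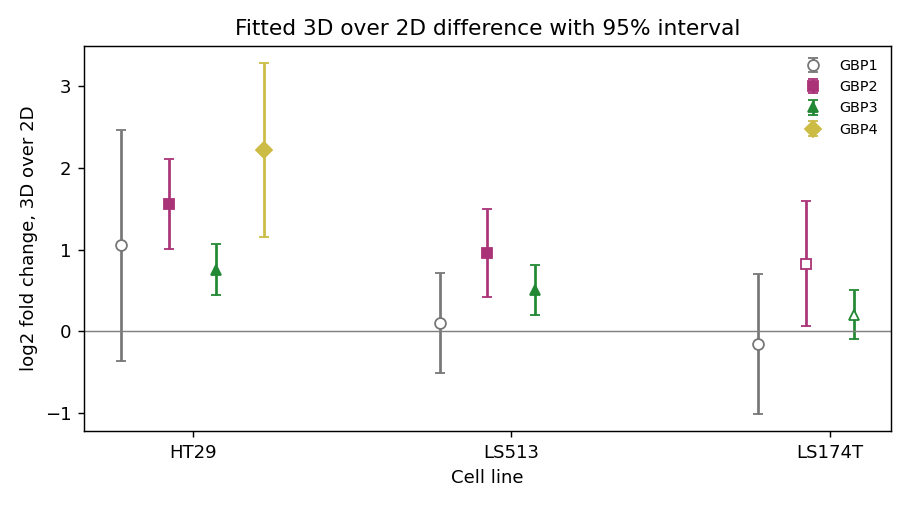
Fitted log2 fold change of 3D over 2D with its 95% interval for GBP1, GBP2, GBP3 and GBP4 in the 3 lines that were tested. Filled symbols passed an adjusted p of 0.05. The GBP2 estimates lie between 1.56 in HT29 and 0.83 in LS174T with overlapping intervals. GBP4 is shown in HT29 alone, since the other 2 lines had 0 counts. Only the 3D libraries of HT29 brought GBP4 past the filter, so its difference was built in. No weight is given to its filled symbol or interval.

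GBP2 and GBP3 were called higher in HT29 and in LS513, and no member in LS174T. GBP4, also past the threshold in HT29, is left out of this count because of the way it passed the filter. No member was called lower. Over all genes tested, 21.1% were called higher in HT29, 13.7% in LS513 and 13.1% in LS174T, and 19.6%, 9.9% and 9.15% lower. Whether the 3D response itself differed between HT29, LS513 and LS174T was tested with 2 degrees of freedom, and 13.7% of all genes tested were called. GBP4, at 0 in LS513 and LS174T, could not be compared in this way, and GBP5 was not tested. GBP1, GBP2 and GBP3 were not called in edgeR, where the adjusted p was 0.573 for GBP1, 0.414 for GBP2 and 0.180 for GBP3. For GBP3 the unadjusted p was 0.0476, the only one of these under 0.05, and DESeq2 called it alone. The GBP2 response in HT29 exceeded that in LS513 by 0.59 (SE 0.37) and that in LS174T by 0.73 (SE 0.46) on the log2 scale, differences that did not pass the threshold.

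Levels in 2D differed between the 3 lines for GBP1, GBP2 and GBP3, as they did for 79.8% of all genes tested. GBP4 was past the threshold as well, but no weight is given to that call. It passed the filter only through HT29 grown in 3D and had 0 counts in LS513 and LS174T. GBP2 was 3.28 log2 units higher in HT29 than in LS174T (SE 0.33) and 3.78 higher in LS513 than in LS174T (SE 0.33), while HT29 and LS513 were not set apart (difference −0.50, SE 0.27, adjusted p = 0.112). GBP3 had another order, with HT29 lower than LS513 by 0.98 (SE 0.15) and lower than LS174T by 1.35 (SE 0.15). LS513 was in turn lower than LS174T in GBP3, by 0.37 (SE 0.15, adjusted p = 0.033). GBP1 was 5.29 lower in HT29 than in LS513 (SE 0.48) and 2.92 higher in LS513 than in LS174T (SE 0.35).

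Ordered over all 8 groups, GBP2 was highest in HT29 and LS513 grown in 3D, at 23.5 ± 2.84 and 22.1 ± 2.77 CPM, which overlapped. LS513 and HT29 grown in 2D followed at 11.3 ± 1.24 and 8.04 ± 2.68 CPM, then HCT116 in 3D, LS174T in 3D and in 2D, and HCT116 in 2D. HT29 in 2D overlapped HCT116 in 3D, whose highest library reached 5.02 CPM. The order of GBP3 began with LS174T and LS513 grown in 3D, at 29.9 ± 2.25 and 28.5 ± 0.266 CPM, and ended with the 2 groups of HCT116. GBP3 in 3D HT29 overlapped 2D LS513.

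Scaled by exonic length, GBP3 was the leading member in 7 of the 8 groups, and GBP2 led in HCT116 grown in 3D. Of the summed level per exonic kb, GBP2 held 34.7% in HT29 grown in 2D and 47.1% in 3D, and 24.6% and 31.8% in LS513. GBP2 held 2.08% and 3.19% in LS174T, where GBP3 held 96.0% and 95.3%. In HCT116 the share of GBP2 was 3.78% in 2D, from 3 counts, and 59.6% in 3D. With coding length in place of exonic length, GBP2 led in HT29 grown in 3D as well, at 56.3%.

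**Figure D4:**
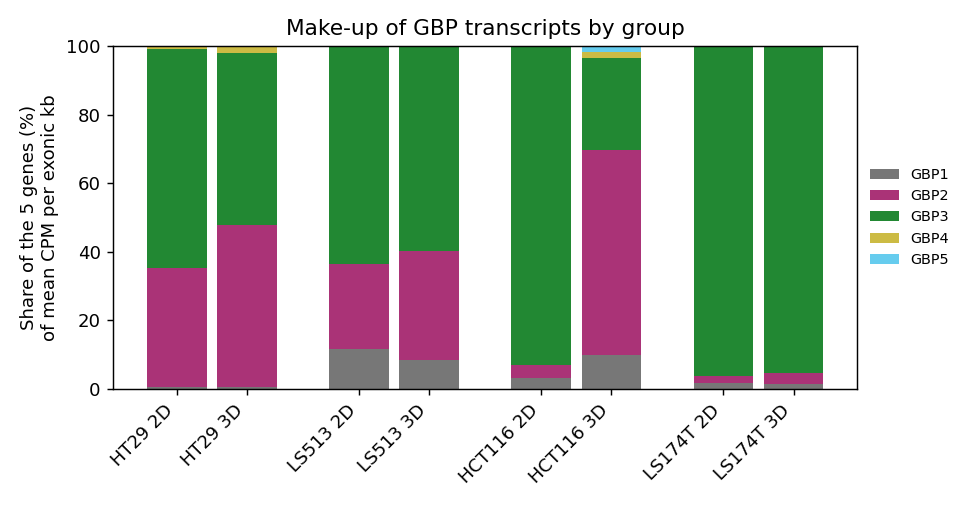
Share of each gene in the summed level of the 5, from mean CPM per exonic kb, in percent for each line and growth condition (3 libraries each). GBP3 fills most of both LS174T bars, and GBP2 takes 59.6% in HCT116 grown in 3D.

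The ratio of GBP2 to GBP3, each per exonic kb, needs no scaling between libraries. In HT29 it was 0.622, 0.319 and 0.709 in 2D and 1.2, 0.799 and 0.854 in 3D. In LS513 it was 0.325, 0.360 and 0.495 in 2D and 0.593, 0.528 and 0.468 in 3D, so that 1 library of 3D fell within the range of 2D. LS174T went from between 0.0189 and 0.0244 to between 0.0329 and 0.0340. HCT116 went from between 0 and 0.152, on at most 2 counts of GBP2 per library, to between 1.51 and 3.34. The 2 groups overlapped in LS513 and lay apart in the other lines.

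**Figure D5:**
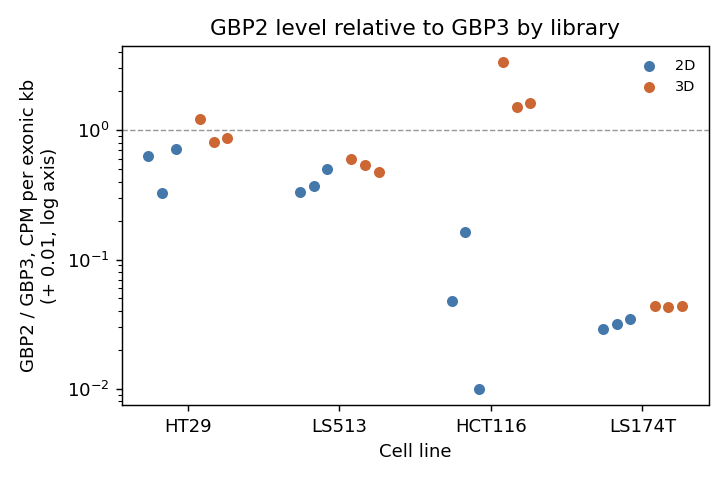
Ratio of GBP2 to GBP3 (CPM per exonic kb, plus 0.01, log axis) in each library, by line, with 2D in blue and 3D in orange. The dashed line marks equal levels; the 3D libraries of HCT116 and 1 of HT29 lie above it, and LS174T lies near 0.03.

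The 7 interferon genes of the list were hardly found, apart from IFNE in HT29. Interferon genes outside the list, among them those of interferon alpha, were not looked at. IFNG, the gene of interferon gamma, and IFNK had 0 counts in all 24 libraries, and IFNB1 had 1 count in all. IFNL1, a type III interferon, had 2 counts in HT29 grown in 2D and 31 in 3D, with 7 to 15 in each 3D library, and 1 and 13 counts in HCT116. IFNL3 had 6 counts in HT29 and 16 in HCT116, all in 3D, and IFNL2 had 3 and 5, also all in 3D. No counts of these type III genes were found in LS513 or LS174T. IFNE, an epithelial interferon, was the only ligand that passed the filter, at 1.49 ± 0.364 CPM in 2D and 1.58 ± 1.09 CPM in 3D HT29, and was not called in any of the 3 lines.

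Of 16 receptors and signalling genes, all tested, 3 were called higher and 1 lower in HT29, 3 and 1 in LS513, and 2 and 2 in LS174T. Against the shares of all genes called higher in these lines, 21.1%, 13.7% and 13.1%, these counts do not set the list apart. IRF9, a DNA-binding part of the complex that acts on the ISRE, went from 6.16 ± 0.964 to 9.67 ± 0.459 CPM in HT29 (0.64 on the log2 scale, adjusted p = 0.0038) and from 10.5 ± 0.721 to 19.1 ± 3.89 CPM in LS513 (0.86, adjusted p = 0.00036). IFNGR2, a chain of the interferon gamma receptor, rose by 0.53 in HT29 and by 0.87 in LS513 on the log2 scale. IFNGR1, the other chain, rose by 0.64 in LS513 and by 0.34 in LS174T. The latter call was lost without the first 2D library, where genes were not filtered and where LS174T was fitted on its own. TYK2, a kinase of the type I receptor, fell by 0.40 in HT29, a call lost without replicate 1 of 2D or replicate 1 or 4 of 3D (adjusted p up to 0.070). In LS174T, JAK2, a kinase of the interferon gamma receptor, went from 10.3 ± 0.403 to 6.63 ± 2.80 CPM (−0.64 on the log2 scale, adjusted p = 0.046). That call was lost when any of the 6 libraries but replicate 3 of 3D was left out (adjusted p up to 0.277). It was also lost with the replicate block and where LS174T was fitted on its own. The log2 fold change lay between −1.01 and −0.38 with single libraries left out. IRF8, a partner of IRF1 and IRF2 in binding DNA, had 0 counts in HT29 and HCT116, 9.67 ± 0.499 CPM in LS513 and 54.2 ± 2.62 CPM in LS174T (2D).

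In HCT116 some receptors, signalling genes and interferon targets are given as a description, since GBP2 was picked in that contrast. IRF9 measured 5.32, 5.44 and 5.61 CPM in 2D and 62.4, 56.3 and 40.5 CPM in 3D. IRF1, a transcription factor induced by interferon, went from 20.4 ± 2.41 to 38.9 ± 5.95 CPM, and TAP1, the peptide transporter of antigen presentation, from 52.3 ± 2.72 to 127 ± 9.79 CPM. Of the 16 receptors and signalling genes, 10 had all 3D libraries above all 2D libraries, beside 22.8% of all genes tested. JAK2 fell without overlap, from 6.91 ± 1.23 to 3.82 ± 0.178 CPM. So did IFNAR2, a chain of the type I receptor, from 16.3 ± 1.79 to 12.5 ± 0.664 CPM. WARS, an interferon target, fell from 176, 164 and 165 to 122, 117 and 141 CPM. GBP2 was highest in the first of the 3D libraries and lowest in the third, and so were IRF9, TAP1, GBP1 and GBP5. IRF1 and GBP3 were highest in the second library and lowest in the third. GBP4, with 3, 2 and 2 counts, had too few to be ordered. Whether these genes share a cause was not tested.

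Among relatives and interferon targets, the genes called higher in HT29 included MX1, PSMB9 and TAP1. MX2 reached more than 8 counts in a library only in 3D groups, and only these brought it past the filter. Of 8 relatives, 5 were tested, and 2 were called higher and 1 lower in HT29, 1 higher in LS513 and none in LS174T. MX2 is among those counted higher in HT29 and in LS513. MX2 and MX1 are antiviral GTPases of the dynamin family. MX2 went from 0.235 ± 0.118 to 1.87 ± 0.919 CPM in HT29. In LS513 it went from 0.0621 ± 0.0292 to 0.55 ± 0.0158 CPM, from 6 counts in 2D. MX2 was past the edgeR threshold in both lines, but no weight is given to these calls because of the filter. MX1 rose by 1.83 in HT29, and ATL2, an endoplasmic reticulum GTPase, fell by 0.48 there. Of 12 interferon targets, 8 were tested, and 5 were called higher and 2 lower in HT29, 2 higher in LS513 and 1 higher in LS174T. CXCL10 is among those counted higher in HT29. Over all genes tested, 21.1% were called higher in HT29, 13.7% in LS513 and 13.1% in LS174T, and 19.6%, 9.9% and 9.15% lower. PSMB9, an immunoproteasome subunit, rose by 2.85 from 6 counts in 2D, and TAP1 by 1.12, both in HT29. CXCL10, a chemokine, had 1 to 5 counts per library in HT29 grown in 2D and 15 to 17 in 3D, and it passed the filter only through that 3D group, as GBP4 did, so its call there was built in. B2M, the light chain of MHC class I, rose by 0.42 in LS513, where the call was lost without the second 3D library (adjusted p = 0.068), and by 0.83 in LS174T, and WARS, a tRNA synthetase induced by interferon gamma, rose by 0.47 in LS513.

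The enzymes that lipidate and finish CaaX tails were measured because GBP1, GBP2 and GBP5 end in a CaaX box. Which of them act on these proteins was not tested. None of the 6 was called higher in any of the 3 lines, and the same 2 were called lower in each, beside 19.6% of all genes called lower in HT29, 9.9% in LS513 and 9.15% in LS174T. ICMT, which methylates the cysteine, went from 241 ± 11.1 to 184 ± 5.97 CPM in HT29 (−0.39 on the log2 scale, adjusted p = 0.00072), and fell by 0.43 in LS513 and by 0.40 in LS174T. The ICMT call in LS174T was lost where that line was fitted on its own (adjusted p = 0.059). ZMPSTE24, a protease of the same route, fell by 0.64 in HT29, by 0.47 in LS513 and by 0.48 in LS174T. Its call was lost in LS513 without replicate 2 of 2D or replicate 1 or 2 of 3D (adjusted p up to 0.13). In LS174T it was lost without replicate 2 or 3 of 2D or replicate 2 of 3D, and where the line was fitted on its own (adjusted p up to 0.122). The prenyltransferase subunits FNTA, FNTB and PGGT1B and RCE1, another protease of CaaX tails, were not called.

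Of 17 partners and effectors, 14 were tested, and 6 were called higher in each of HT29, LS513 and LS174T, with 2, 0 and 1 called lower. Over all genes tested, 21.1%, 13.7% and 13.1% were called higher in these lines, and 19.6%, 9.9% and 9.15% lower. The counts include CASP5 in LS513 and CASP5 and IL1B in LS174T, whose calls were built in as set out below. In HT29, PYCARD, the inflammasome adaptor, rose from 11 ± 2.77 to 35.0 ± 2.97 CPM (1.67 on the log2 scale, adjusted p = 6.2e-06), and GSDMD, which forms pores in the membrane, rose by 0.81. IL18, a cytokine processed by caspase-1, fell by 1.22 in the same line. In LS513, SFN, a 14-3-3 protein, rose by 0.80 and PIM1, a kinase, by 1.03. CASP4, which senses bacterial lipopolysaccharide, rose by 0.64 in LS174T. CASP5, a sensor of the same kind, had 1 to 4 counts per library in 2D and 19 to 39 in 3D in LS513, and 0 to 6 and 8 to 23 in LS174T. IL1B, a cytokine, had 5 to 7 counts per library in 2D and 28 to 40 in 3D in LS174T. Both were past the edgeR threshold in these lines, but they passed the filter only through those 3D groups, so these calls were built in. The CASP5 call in LS174T was also lost without replicate 1 or 3 of 2D or replicate 2 or 3 of 3D (adjusted p up to 0.075).

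Over the 66 genes of these lists, 50 were tested, and 16 were called higher and 8 lower in HT29, 12 and 3 in LS513, and 9 and 5 in LS174T. These counts include MX2, CASP5, CXCL10 and IL1B, whose passing the filter rested on 3D groups, and the shares over all genes are given above. The median log2 fold change of the 50 was 0.07 in HT29, 0.07 in LS513 and −0.11 in LS174T, beside 0.00, 0.00 and 0.02 for all genes. In HCT116, 27 of the 50 had all 3D libraries above all 2D libraries, beside 22.8% of all genes tested, which is given as a description.

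The genes whose pattern over the 24 libraries was most like that of a member were ranked by Pearson correlation of log2 CPM, which here mostly follows the differences between lines. For GBP2 these were NECTIN4, a cell adhesion protein (r = 0.979), INAVA (0.961) and GRHL3, an epithelial transcription factor (0.960). After the mean of each line was subtracted r was 0.955, 0.923 and 0.955, values that include the HCT116 rise by which GBP2 was chosen and so are a description of that rise as well. NECTIN4 went from 15.2 to 37.8 CPM in HT29, from 28.8 to 59.3 in LS513, from 0.885 to 7.18 in HCT116 and from 3.86 to 5.18 in LS174T. For GBP3 they were ABO (0.990), STAP2 (0.988) and CGREF1 (0.987), with 0.680, 0.839 and 0.851 without the line means. For GBP1 they were GPR153, PLB1 and GMIP (0.963, 0.961 and 0.953), and for GBP4, which is near 0 in most libraries, ANGPT4, UPK3A and PSCA (0.957, 0.954 and 0.952). Between members, r was 0.597 for GBP2 and GBP3, 0.577 for GBP1 and GBP2 and 0.605 for GBP1 and GBP3. Without the line means these were 0.698, 0.827 and 0.625. These values also take in the HCT116 libraries, where GBP2 was chosen for its rise, and so are a description.

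The libraries were checked against cell type markers. All 8 epithelial markers were above the floor in every library of HT29, LS513 and LS174T, and 7 of 8 in HCT116, where CDX1 was at 0 in 3D. Of 6 leukocyte markers, CD3E was at 0 in every library and PTPRC had at most 2 counts. The summed leukocyte markers, with CD68 reaching the highest level among them, were higher in 3D, at 24 to 33.1 CPM against 11.6 to 15.6 in HT29, 61.8 to 91.9 against 18.1 to 20.5 in LS513, 36.6 to 48.2 against 10.4 to 14.2 in HCT116, and 5.25 to 7.0 against 2.33 to 3.89 in LS174T. The part of these in the GBP values was not tested. Summed over 4 markers each, endothelial genes reached at most 2.38 CPM and fibroblast genes at most 22.1 CPM, the latter in HCT116.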

How the data were processed

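Raw counts per gene were deposited by the authors for each technical replicate, with no normalization. The submitters' processing notes name bcl2fastq 2.18.0.12, Trim Galore 0.4.1, STAR and HTSeq 0.5.3 with hg19, whereas the study's methods name GRCh38. The counts carry no coordinates, so positions were taken from GENCODE 29 (GRCh38) by Ensembl identifier, which named 57980 of 58243. The options of HTSeq are not given in the sources used here, and reads in exons shared by GBP2 and GBP7 may have been dropped. Libraries were strand specific.

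Technical replicates were summed per library (8 each, 7 in 1 HT29 library, whose eighth was not analysed here). Groups came from the sample labels. edgeR 4.0.16 in R 4.3.3 was used with TMM, filterByExpr and a robust quasi-likelihood fit of 8 groups over 24 libraries, with Benjamini-Hochberg adjustment over 19387 genes and calls at 0.05. DESeq2 1.42.0 was an alternative, as were other scaling, no filter, a replicate block, fold cutoffs, single-line fits and leaving out each library. A single gene's exact permutation test of 3 against 3 cannot go under p = 0.1. Intervals of pooled ratios are exact and, like floors of 3 counts, cover counting error only. Named are the members, up to 3 called genes of the largest fold change per list and line, every interferon of the list, the 3 most similar genes per member and genes sharing sequence with a member. IRF8, the CaaX enzymes that were not called and, in HCT116, IRF9, IRF1, TAP1, JAK2, IFNAR2 and WARS were named after their values were seen. The members and lists were chosen with earlier results of these data known. The fit was tested on simulated data. One gene of the lists, which the counts include, is not reported by name here.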

Additional observations from a re-analysis of the deposited data

Results flagged for a closer look

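Of the pathway genes named above for a called 3D change, 11 were called in edgeR for a different 3D response between HT29, LS513 and LS174T. The other genes of the lists were not counted. Since these 11 come from genes picked for large 3D changes, they cannot be set beside the 13.7% of all genes tested. Of GBP1, GBP2 and GBP3, none was called in edgeR, and DESeq2 called GBP3. GBP4 and GBP5 could not be compared in this way. The adjusted p of that difference was 0.0037 for IRF9, which was lower in 3D in LS174T (log2 fold change −0.27) and higher in HT29 and LS513 (0.64 and 0.86). It was 0.020 for IFNGR2 (0.53, 0.87 and 0.31 in HT29, LS513 and LS174T) and 0.00063 for IFNGR1 (−0.11, 0.64 and 0.34). It was 0.042 for MX1 (1.83, 0.60 and 0.44), 0.0058 for PSMB9 (2.85, 0.09 and 0.41) and 0.0021 for TAP1 (1.12, 0.05 and 0.29). WARS, with 1.0e-04, had −0.28, 0.47 and −0.19, and SFN, with 0.0011, had 0.33, 0.80 and −0.19. PYCARD, with 0.011, had 1.67, 0.70 and 0.29. IL18, with 2.5e-05, had −1.22, 0.35 and −0.36, and IL1B, with 0.033, had −1.09, 0.67 and 2.67, where the first rests on 6 counts and the gene passed the filter only through LS174T grown in 3D. Groups of 3 libraries were too small for a test of single outlying libraries.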

How the results depend on the processing

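Of 524 recomputed fold changes of members and named genes in the 3 tested lines, 490 stayed on their side of the threshold, 31 lost a call, 3 gained one and 0 changed sign. The gains were all GBP2 in LS174T, so that the count of members called there went from 0 to 1 with all genes of at least 1 count, with the replicate block and with the 6 libraries of the line alone (adjusted p 0.0077, 0.024 and 0.037), over a range of 0.0077 to 0.257. In LS513 the count went from 2 to 1 with the replicate block and to 0 under the fold cutoffs (log2 under −0.5 or over 1.5), and lay between 1 and 2 with single libraries left out, with 1 without replicate 2 or replicate 3 of 2D. The fold cutoffs also took the pathway calls over the 3 lines from 53 to 15. DESeq2 took the members with different responses from 0 to 1 (GBP3). The log2 pooled ratio of GBP2 in HCT116 was 6.62 and lay between 6.02 and 7.58 with single libraries left out, the highest without replicate 2 of 2D, which held 2 of the 3 counts. Same-numbered 2D and 3D libraries of a line correlated between −0.146 and 0.0938, and differently numbered ones between −0.229 and 0.221. These values show no pairing by number, but with 3 libraries per group they cannot exclude it. HT29 had replicates 1, 2 and 3 in 2D and 1, 3 and 4 in 3D, so only replicates 1 and 3 form full blocks there. With the replicate block GBP4 was no longer past the threshold in HT29 (adjusted p = 0.085). Counts under 10 in some libraries limit GBP4, GBP5 and, in HT29 and HCT116, GBP1. The causes of these changes were not tested.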
